A study of Dendrobium officinale with 6 samples.

Results

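The unigenes described here are those that the deposited annotation of the *Dendrobium officinale* transcriptome assigns to the TCP, SBP, GRF, YABBY or LOB transcription factor family. The rule took 132 unigenes (assembled transcript sequences) of 157901: 40 TCP, 34 SBP, 12 GRF, 10 YABBY and 36 LOB. They stood in 69 units of the assembly, each either a contig cluster (contigs that the assembler grouped for their similarity) or an unclustered unigene, of 103667 such units in the whole table. The closest NCBI protein came from *Dendrobium catenatum* for 128 of the 132 and from *Phalaenopsis equestris* for the other 4, and none came from *Solanum*, the genus of the potato in the culture medium.

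RNA-Seq was performed on 3 libraries of leaves and 3 libraries of protocorm-like bodies (PLBs), named as biological replicates in the labels. Leaves came from the original plants. PLBs, which are small tuber-like bodies that form in orchid tissue culture, were raised from seed explants on 1/2 MS medium (a diluted mineral medium). The medium held the auxins α-NAA at 0.5 mg/L and 2,4-D at 1.5 to 2.0 mg/L, the cytokinin 6-BA at 1.0 mg/L and potato juice at 100 g/L. The culture conditions in the labels are 16 h of light and 8 h of darkness for 60 days. Tissue, culture, hormones and plant age therefore changed together and cannot be told apart, and whole tissues were sampled, so a lower level can stand for fewer cells of a type or for less RNA per cell. The tissue labels were checked with the light-harvesting proteins of chloroplasts, whose FPKM summed to 13706 to 16490 in the leaf libraries and to 591 to 1754 in the PLB libraries. Of the unigenes of cyclin B and PCNA, which mark dividing cells, 3 of 9 tested were called higher and 1 lower in PLBs. Of all unigenes tested, 16.8% were called higher and 22.9% lower. Summed per contig cluster, 0 of 4 tested were called, with 1 log2 fold change above 0 and 3 below. They summed to 193 to 206 FPKM in leaves and 193 to 253 in PLBs, of which the cyclin B1-2 cluster CL839 alone held 176 to 188 and 159 to 217. The PCNA cluster CL1839 had 5.33, 4.95 and 5.92 FPKM in leaves and 15.7, 18.4 and 12.2 in PLBs, and passed the minimum fold but missed the adjusted p needed for a call (edgeR adjusted p = 1.21e-03). The other PCNA cluster, CL11652, had 4.05, 3.61 and 5.14 FPKM in leaves and 2.87, 5.04 and 4.26 in PLBs. Its log2 fold change was -0.93 (edgeR adjusted p = 0.0495). Another 4 B-type cyclin unigenes, with too few counts to test, had at most 0.05 FPKM in leaves, 1.59 to 2.43 in PLB replicate 1, 0 to 0.79 in PLB replicate 2 and 0 in PLB replicate 3. The part of dividing cells in the results was not tested.

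These 5 families are known, mainly from *Arabidopsis*, rice and maize, for setting how plant organs start, divide and expand. CIN-type TCP proteins end cell division in growing leaves, whereas class I TCP proteins act on cell cycle genes. SBP proteins (SPL genes) time the change from juvenile to adult growth, and many are silenced by miR156. GRF proteins keep leaf primordia dividing together with GIF coactivators and are limited by miR396. YABBY proteins specify the lower side of lateral organs and promote blade growth. LOB proteins (LBD genes) act at organ boundaries, and several class I members start lateral roots and callus. No sequences of these unigenes were used here.

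Levels are given as FPKM (fragments normalised to transcript length and to the mapped total of the library), summed over the contigs of a cluster and in the order of replicates 1, 2 and 3. Differences were tested on expected counts summed per cluster with edgeR's quasi-likelihood test. A cluster was called at a Benjamini-Hochberg adjusted p of at most 0.001 over all 36425 clusters and unclustered unigenes tested, provided that it also moved by 1 or more on the log2 scale. PLB over leaf is the direction of every fold change, and each follows with its standard error (SE). FPKM is scaled to a library's total and the test to TMM factors. When libraries were scaled by size alone, the median change over all clusters went from 6.2e-04 to 0.35, so a ratio of FPKM is not the tested change.

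Of the 69 units, 60 had enough counts to be tested, and 19 of them were called higher and 9 lower in PLBs. Among all clusters tested, 17.4% were called higher and 22.9% lower, together 40.3%. Among the 1306 tested clusters of any transcription factor family, 25.9% were called higher and 17.8% lower. The families did not move alike. LOB had 10 of 13 tested units higher and 0 lower, and GRF had 5 of 9 higher and 1 lower. TCP had 1 of 20 higher and 5 lower, SBP 1 of 13 higher and 2 lower, and YABBY 2 of 5 higher and 1 lower. The median log2 fold change was -0.66 for TCP, 0.17 for SBP, 1.62 for GRF, 2.66 for YABBY and 5.00 for LOB, against 6.2e-04 over all clusters. The YABBY median is the value of the uncalled CL1107, with 3 units above 0 and 2 below. Per unigene the YABBY median was -0.28, with 3 above 0 and 3 below. Of the LOB units, 4 had no count in leaves, and with these at their lower bounds the LOB median was 3.66.

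**Figure D1:**
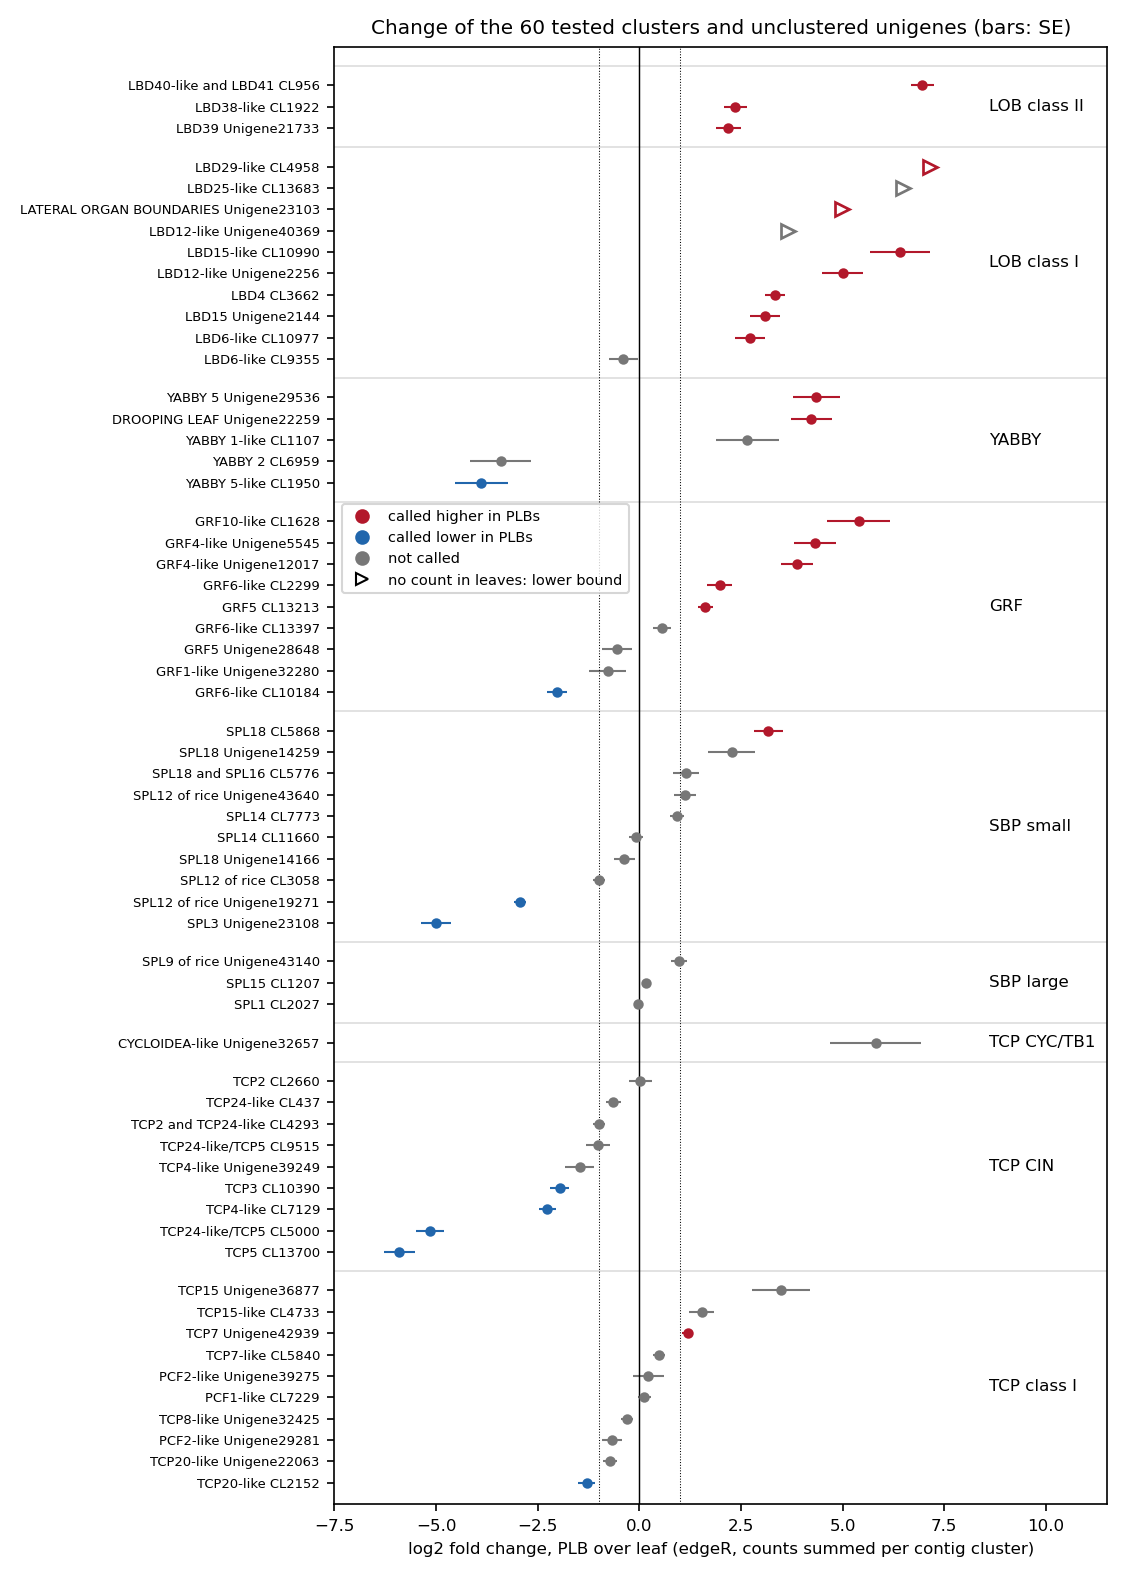
Log2 fold change (PLB over leaf, horizontal axis) of each of the 60 tested clusters and unclustered unigenes, grouped by family, with bars for the SE and dotted lines at -1 and 1. Triangles are lower bounds for units without a count in leaves. All but 1 of the 13 LOB units lie right of 0, and 8 of the 9 CIN-type TCP units lie left of it.

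Counted contig by contig, 99 of the 132 unigenes were tested, and 31 were called higher and 12 lower. Of all 70383 unigenes tested, 16.8% were called higher and 22.9% lower, together 39.7%. Of the 2379 tested unigenes of any transcription factor family, 23.6% were called higher and 20.1% lower. The counts were 16 higher and 0 lower of 23 for LOB, 3 and 0 of 9 for GRF, 2 and 0 of 6 for YABBY, 5 and 5 of 25 for SBP, and 5 and 7 of 36 for TCP. Of the families with 0 lower by edgeR, an unadjusted p under 0.05 gave 0 LOB, 1 GRF and 3 YABBY unigenes lower, and DESeq2 called 0, 1 and 2 lower. These checks cover only unigenes with enough counts to test, and with a filter on mean FPKM 1 LOB unigene was lower. Testing with 1 library fewer lowered the calls throughout the table. Without 1 leaf library, 7.24% to 8.48% of all clusters were called higher and 11.6% to 13.7% lower. Without 1 PLB library these shares were 11.9% to 12.7% and 17.5% to 18.2%.

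The family totals showed where the transcripts lay. LOB had a summed FPKM of 29.2 ± 1.22 (SD, n = 3) in leaves and 232 ± 61.3 in PLBs, and GRF had 19.1 ± 2.41 and 61.9 ± 6.38, with no overlap between the tissues. TCP stood at 200 ± 8.51 and 190 ± 20.1, a difference within the spread of the PLB libraries. In CPM (counts scaled to the library total, here with the TMM factors of the test), the TCP sums did not overlap, at 380 to 418 in leaves and 239 to 305 in PLBs. SBP stood at 115 ± 2.39 and 137 ± 12.6, again without overlap. YABBY had 14.6 ± 1.28 in leaves and 31.3, 7.57 and 13.7 in the 3 PLB libraries, so that PLBs lay on both sides of leaves. The log2 ratio of the PLB mean to the leaf mean was 0.27 in FPKM and 0.94 in CPM, where the PLB libraries at 37.3, 9.89 and 17.9 again lay on both sides of the leaf libraries. With 3 libraries against 3 an exact permutation test (two-sided) cannot go below p = 0.1, so these sums carry no test.

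**Figure D2:**
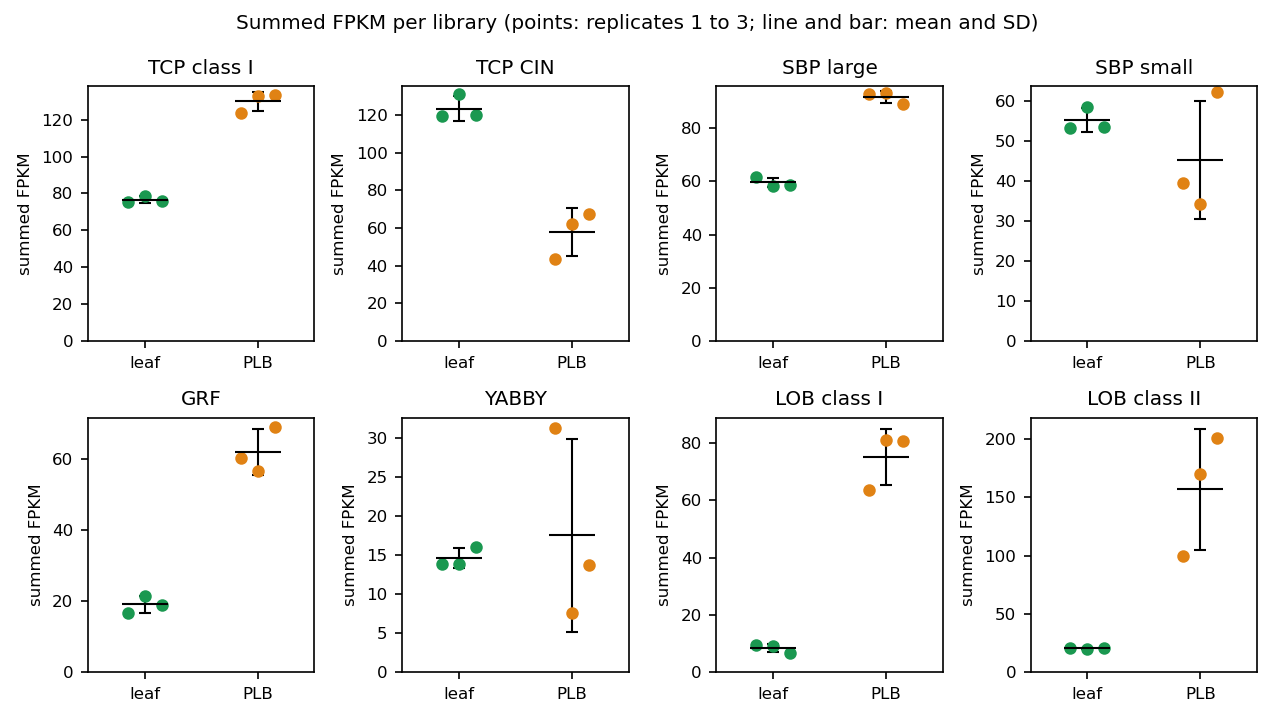
Summed FPKM (vertical axis, from 0) of the member unigenes of each family or class in each library, with points for the 3 replicates of a tissue, a line for the mean and a bar for the SD. Class I TCP genes had a mean of 76.6 in leaves and 130 in PLBs, CIN-type genes 123 and 57.7, and both LOB classes were higher in every PLB library.

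The summed levels of the CIN-type and class I TCP genes lay on opposite sides of their leaf levels in PLBs. CIN-type members summed to 119, 131 and 120 FPKM in leaves and to 43.4, 62.2 and 67.6 in PLBs. Class I members summed to 75.4, 78.8 and 75.6 in leaves and to 124, 133 and 133 in PLBs. Each class kept the tissues apart in every library. In CPM with the TMM factors, class I members summed to 123 to 131 in leaves and 155 to 170 in PLBs. The log2 ratio of the class I means was 0.36 there and 0.76 in FPKM. For CIN-type members it was -1.24 in CPM and -1.10 in FPKM. Of the 9 CIN-type clusters, 4 were called lower and 0 higher, and 8 had a log2 fold change below 0 (by edgeR, 0 were higher at an unadjusted p under 0.05, and DESeq2 called 0 higher). Of the 10 class I clusters, 1 was called higher and 1 lower. Their median log2 fold change was 0.17, with 6 above 0 and 4 below. The difference between the classes was not tested.

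The most abundant CIN-type gene of leaves was CL13700, named for TCP5 in SwissProt, a gene that restrains leaf and petal growth in *Arabidopsis*. The closest NCBI protein of its member contig was uncharacterized. CL13700 had a summed FPKM of 46.8, 50.1 and 43.2 in leaves and 0.93, 1.38 and 0.32 in PLBs. The log2 fold change was -5.90 (SE 0.38, edgeR adjusted p = 4.74e-06), and both of its contigs were called lower. CL5000, TCP24-like in the NCBI match and TCP5 in SwissProt, had 8.01, 6.41 and 8.88 FPKM in leaves and 0.31, 0.37 and 0.26 in PLBs. Its log2 fold change was -5.15 (SE 0.35, edgeR adjusted p = 6.51e-06). For CL13700 and CL5000 no PLB library came near the lowest leaf library. CL9515, with the same names as CL5000, had 17.45, 17.9 and 14.9 FPKM in leaves and 5.83, 13.1 and 9.97 in PLBs. Its log2 fold change of -1.02 (SE 0.29, edgeR adjusted p = 0.0119) was not called.

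Smaller falls were in genes named for TCP4 and TCP3, which are miR319 targets in *Arabidopsis* and slow the division of leaf cells there. CL7129 (TCP4-like) had 6.04, 6.99 and 6.85 FPKM in leaves and 1.63, 2.07 and 1.66 in PLBs, a log2 fold change of -2.27 (SE 0.21, edgeR adjusted p = 3.13e-05). CL10390 (TCP3) had 3.95, 5.01 and 3.40 FPKM in leaves and 1.47, 1.18 and 1.39 in PLBs, a log2 fold change of -1.96 (SE 0.23, edgeR adjusted p = 1.13e-04). Without leaf replicate 2 the adjusted p of CL10390 was 1.03e-03, just past the threshold. Thus the 4 called CIN-type clusters fell without overlap between the tissues. The uncalled Unigene39249 and CL9515 also had FPKM wholly below the leaf range in PLBs. Of all clusters tested, 33.7% were separated in this direction.

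The other 5 CIN-type clusters were not called. CL437 (TCP24-like), the most abundant of the class in PLBs, had 38.6, 41.9 and 38.8 FPKM in leaves and 24.2, 31.2 and 42.9 in PLBs, with the third PLB library above every leaf library. Its log2 fold change was -0.64 (SE 0.19, edgeR adjusted p = 0.0163). The remaining 4 had log2 fold changes from -1.47 to 0.02. The single unigene of the CYC/TB1 class (Unigene32657), the class known for branching and flower symmetry, was looked at after its values were seen. It had 0, 0.07 and 0.04 FPKM in leaves and 1.07, 0.99 and 6.23 in PLBs, and its log2 fold change of 5.81 (SE 1.11) did not pass at an adjusted p of 1.55e-03 by edgeR, whereas DESeq2 called it.

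Class I TCP genes held the highest TCP levels of PLBs beside CL437. Unigene42939 (TCP7) had 12.9, 13.9 and 12.2 FPKM in leaves and 39.1, 40.4 and 32.6 in PLBs, and rose by a log2 fold change of 1.19 (SE 0.14, edgeR adjusted p = 1.25e-04). It lost its call without any one of the leaf libraries, where the adjusted p was 1.11e-03 to 1.78e-03. CL5840 (TCP7-like) had 16.2, 19.8 and 16.9 FPKM in leaves and 29.1, 33.3 and 39.9 in PLBs. Its tested change of 0.47 (SE 0.15, edgeR adjusted p = 0.0182) was below the minimum. In *Arabidopsis*, TCP7 acts on cell division and leaf growth together with other class I members.

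The 1 class I cluster called lower was CL2152 (TCP20-like), which the naming rule did not choose. Its FPKM was 6.10, 6.89 and 6.53 in leaves and 3.82, 4.43 and 4.20 in PLBs, with a log2 fold change of -1.29 (SE 0.21, edgeR adjusted p = 6.41e-04). TCP20 binds promoters of cyclin and ribosomal protein genes in *Arabidopsis*. A second TCP20-like unigene, Unigene22063, pointed the same way at -0.73 (SE 0.17) without passing (edgeR adjusted p = 5.04e-03).

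Contigs of one TCP cluster could move in opposite directions. In CL5840, Contig1 fell from 7.37, 8.16 and 7.59 FPKM to 4.81, 3.73 and 4.59 (log2 fold change -1.13, edgeR adjusted p = 6.09e-04), while Contig3 rose from 8.80, 11.7 and 9.27 to 24.3, 29.5 and 35.3 (log2 fold change 1.27, adjusted p = 7.73e-04). In CL4293, named for TCP2 and TCP24, Contig5 had 2.08, 3.16 and 3.68 FPKM in leaves and 0 in every PLB library. Contig11 of that cluster rose from 0.66, 0.56 and 0.37 FPKM to 2.84, 3.23 and 3.66. CL2660 (TCP2) also changed contigs: Contig2 had 2.49 to 2.98 FPKM in leaves and at most 0.04 in PLBs, and the sum of the cluster changed by 0.02 (SE 0.28). Across the 5 families, 3 clusters had contigs called in both directions, CL5840, CL4293 and the SBP cluster CL2027. A contig can be an alternative transcript, an allele or a close paralog, and these files do not separate those.

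**Figure D3:**
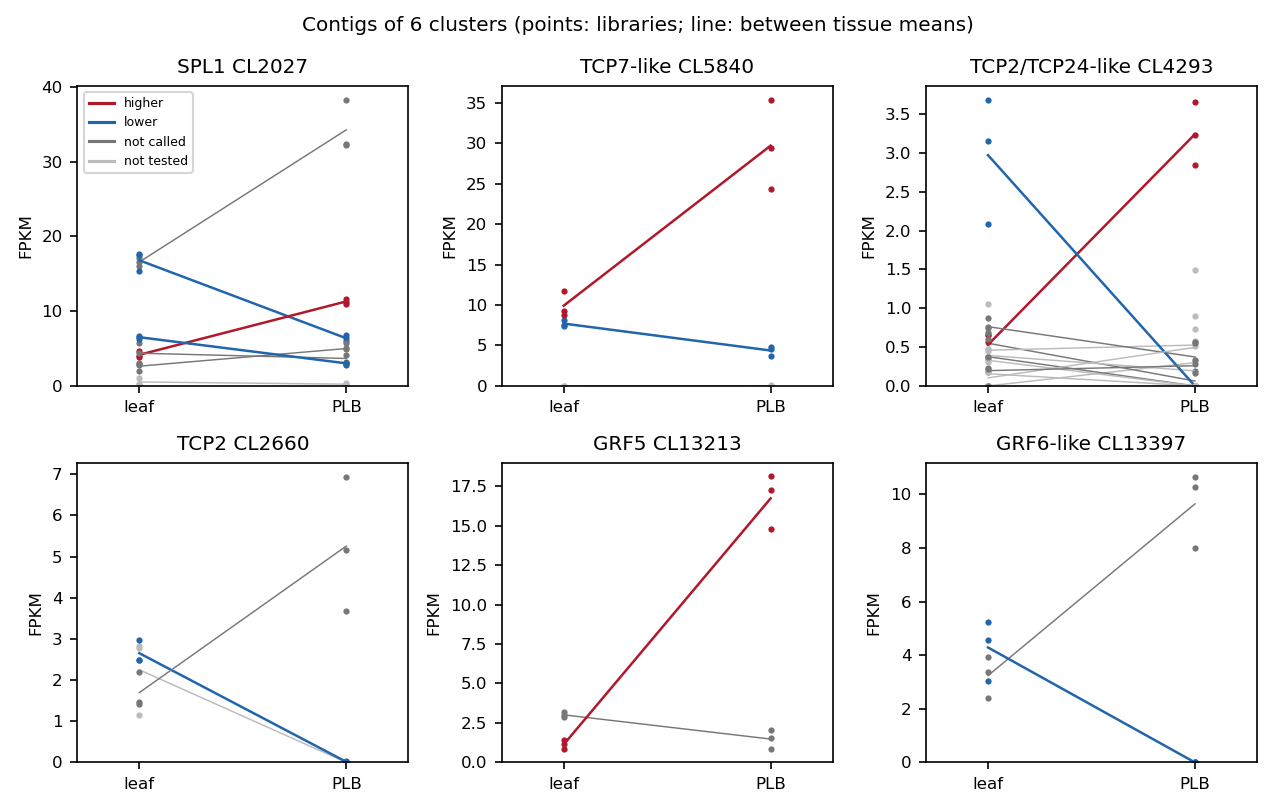
FPKM (vertical axis, from 0) of the contigs of 6 clusters in leaves and PLBs, with points for libraries and lines between tissue means, coloured by the call of the contig. In SPL1 CL2027, TCP7-like CL5840 and TCP2/TCP24-like CL4293, contigs called higher and contigs called lower stood side by side.

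SBP genes divided by member rather than moving as a family. The 13 tested clusters gave 1 call higher and 2 lower beside the 17.4% and 22.9% of all clusters, and 10 were not called. Genes of the large type, whose proteins carry long carboxy-terminal regions, summed to 61.8, 58.4 and 58.7 FPKM in leaves and to 92.8, 93.5 and 89.2 in PLBs. The log2 ratio of their means was 0.62 in FPKM and 0.26 in CPM with the TMM factors, and 0 of their 3 clusters were called. Those of the small type summed to 53.4, 58.7 and 53.6 in leaves and to 39.4, 34.3 and 62.2 in PLBs, and so overlapped. The type was assigned from the annotated name, which leaves the 2 clusters named SPL14 uncertain.

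The largest fall was in Unigene23108, named SPL3 in the NCBI match and SPL13 in SwissProt. It had 19.0, 21.9 and 17.6 FPKM in leaves and 1.23, 0.75 and 0.31 in PLBs, a log2 fold change of -5.00 (SE 0.38, edgeR adjusted p = 1.03e-05). SPL3 of *Arabidopsis* is a miR156 target that promotes flowering. Unigene19271, named for SPL12 of rice, had 11.6, 12.1 and 12.6 FPKM in leaves and 2.18, 1.97 and 1.88 in PLBs, a log2 fold change of -2.93 (SE 0.15, edgeR adjusted p = 1.77e-06). Both were below every leaf library in all 3 PLB libraries, and both kept their calls under all 15 alternatives run. CL3058, also named for SPL12 of rice, fell by less than the minimum (log2 fold change -0.99, SE 0.15, edgeR adjusted p = 3.85e-04). Unigene43640, of the same name, pointed the other way at 1.13 (SE 0.27, edgeR adjusted p = 5.25e-03). Neither CL3058 nor Unigene43640 was called.

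CL5868 (SPL18) was the 1 SBP cluster called higher. It had 2.15, 2.49 and 1.96 FPKM in leaves and 15.9, 16.4 and 38.4 in PLBs, with the third PLB library more than the other two combined. The log2 fold change was 3.17 (SE 0.36, edgeR adjusted p = 8.94e-05), and without leaf replicate 3 the adjusted p was 1.40e-03. Of its 7 contigs, 4 were called higher and 0 lower.

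The most abundant SBP cluster in both tissues, CL2027 (SPL1), had 54.4, 50.6 and 50.0 FPKM in leaves and 61.2, 61.2 and 69.3 in PLBs. SPL1 is a large SBP gene tied to heat tolerance in *Arabidopsis*. Its tested change was -0.02 (SE 0.11, edgeR adjusted p = 0.86), and its sign turned under scaling by library size. Within it, Contig2 fell from 17.6, 15.3 and 17.5 FPKM to 5.98, 6.39 and 6.75, a log2 fold change of -1.71, and Contig6 by -1.42. Contig4 rose from 4.64, 3.89 and 3.97 to 11.3, 10.98 and 11.7, a log2 fold change of 1.13.

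Unigene43140, named for SPL9 of rice, was second among SBP genes in PLBs, at 31.3, 34.7 and 22.1 FPKM against 11.7, 12.3 and 11.6 in leaves. Its log2 fold change of 0.98 (SE 0.19, edgeR adjusted p = 1.62e-03) missed the thresholds. It passed them in 5 of 15 alternatives, with a change of 1.31 under scaling by library size, 1.28 and 1.22 with limma, 1.17 without PLB replicate 3, and 0.98 where an adjusted p under 0.05 was enough. The other 8 tested SBP clusters, CL3058 and Unigene43640 among them, had log2 fold changes from -0.99 to 2.27. Another 2 units, named SPL3 and SPL8, had too few counts to test. CL7773 (SPL14) had most of its FPKM from Contig3, which is annotated as a G patch domain protein, so its level is not that of an SBP gene alone.

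GRF genes mostly rose. In all, 5 of the 9 tested clusters were called higher and 1 lower, beside 17.4% and 22.9% of all clusters. Without any one leaf library, or without PLB replicate 1 or 2, the number called higher was 3. The call lower was absent without PLB replicate 2.

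Unigene12017 (GRF4-like) was the GRF unit with the highest mean level in PLBs. Its FPKM was 0.86, 1.24 and 1.06 in leaves and 12.7, 14.3 and 32.4 in PLBs, a log2 fold change of 3.87 (SE 0.39, edgeR adjusted p = 4.96e-05). A second GRF4-like unigene, Unigene5545, had 0.09, 0.19 and 0.03 FPKM in leaves and 2.65, 1.75 and 4.09 in PLBs, a log2 fold change of 4.32 (SE 0.52, edgeR adjusted p = 1.18e-04). GRF4 enlarges grains and leaves in rice, where it is a miR396 target.

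CL13213 (GRF5) had 4.13, 3.70 and 4.61 FPKM in leaves and 18.8, 20.2 and 15.6 in PLBs, a log2 fold change of 1.62 (SE 0.18, edgeR adjusted p = 7.85e-05). The rise lay in Contig2 alone (GRF3 in SwissProt), which went from 1.15, 0.84 and 1.41 FPKM to 17.2, 18.1 and 14.8. Per unigene its log2 fold change was 3.58 (SE 0.25, edgeR adjusted p = 2.02e-05). Contig1, not assigned to the family in the annotation, had 2.98, 2.86 and 3.20 FPKM in leaves and 1.53, 2.08 and 0.83 in PLBs. GRF5 of *Arabidopsis* prolongs cell division in leaves.

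CL1628 (GRF10-like) was near 0 in leaves, with 0.24, 0 and 0 FPKM, and had 6.45, 3.69 and 3.67 in PLBs. Its leaf count was 2 against 124 in PLBs, and the edgeR adjusted p was 2.96e-04. It lost the call in 5 of 15 alternatives, among them 4 of the 6 fits with 1 library left out, with adjusted p up to 2.70e-03. Per unigene its member Contig1 was not called (edgeR adjusted p = 2.39e-03). Contig2, which carries no family in the annotation, was called higher. In CL2299 (GRF6-like) the summed FPKM was nearly level, with 2.14, 1.99 and 2.19 in leaves and 2.66, 2.26 and 2.84 in PLBs, while counts rose from 13, 19 and 17 to 80, 74 and 91. The edgeR change of 1.97 (SE 0.30, adjusted p = 4.36e-04) therefore followed a move from the short contigs Contig1 and Contig3 to the longer Contig4. It was not called when tested on log2 FPKM, where it was 0.20 to 0.28, nor without any one library.

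The 1 GRF cluster called lower was CL10184 (GRF6-like), the most abundant GRF of leaves. It had 13.6, 17.4 and 13.9 FPKM in leaves and 7.56, 4.84 and 3.88 in PLBs, a log2 fold change of -2.03 (SE 0.25, edgeR adjusted p = 1.29e-04). Of its 4 contigs, 3 carry no family in the annotation, and with the 1 member contig alone the change was -1.43 (edgeR adjusted p = 6.96e-04). In the fit per unigene that contig, Contig4, was not called (log2 fold change -1.40, edgeR adjusted p = 1.64e-03). The contig called lower there was Contig3, which carries no family. A related cluster, CL13397 (GRF6-like), had 7.95, 9.19 and 5.45 FPKM in leaves and 10.3, 10.7 and 8.00 in PLBs and was not called (log2 fold change 0.55, SE 0.22, edgeR adjusted p = 0.0522). Its 2 contigs parted. Contig2 had 4.57, 5.25 and 3.05 FPKM in leaves and 0 in every PLB library, and Contig1 had 3.38, 3.94 and 2.40 in leaves and 10.3, 10.7 and 8.00 in PLBs.

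**Figure D4:**
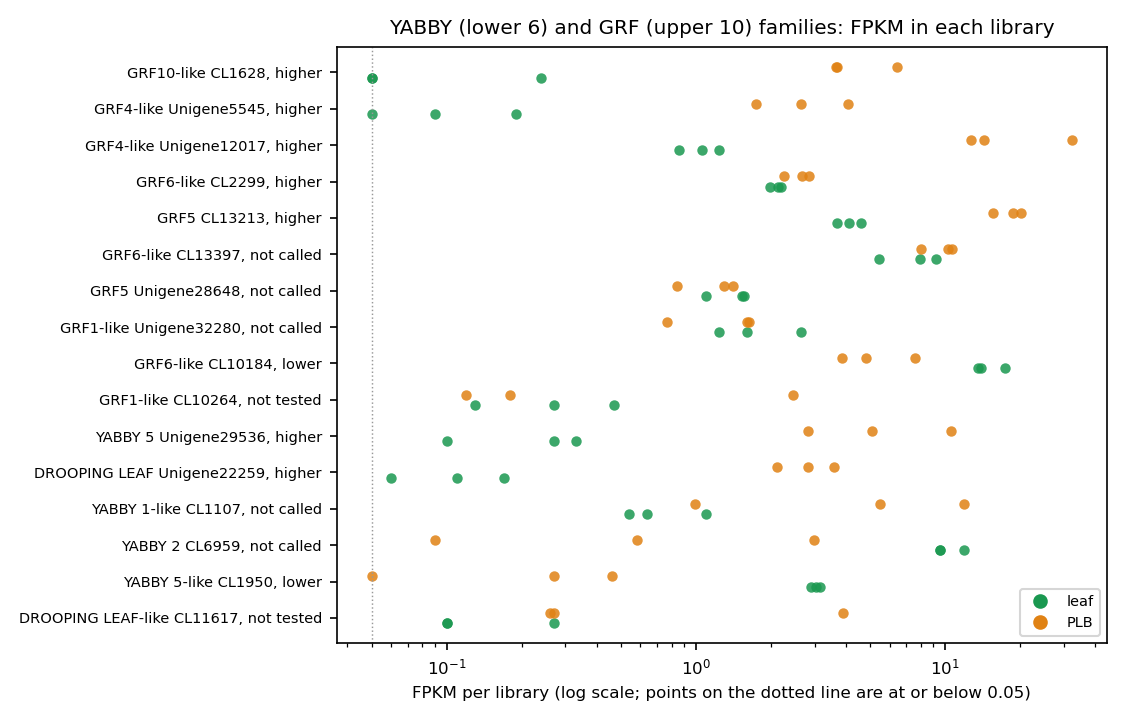
FPKM of each YABBY and GRF unit in every leaf and PLB library (log axis), with the call beside each name and values at or below 0.05 drawn on the dotted line. GRF4-like, GRF5 CL13213 and GRF10-like units lie wholly to the right in PLBs, GRF6-like CL10184 wholly to the left, and YABBY units lie on both sides.

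YABBY genes were scarce in both tissues and differed in direction. In leaves the leading member was CL6959, named YABBY 2 in the NCBI match and, by contig, YABBY 6 or YABBY 5 in SwissProt. YABBY 2 promotes blade growth in *Arabidopsis*. CL6959 had 9.53, 9.60 and 11.98 FPKM in leaves. In PLBs it had 2.98, 0.58 and 0.09, below every leaf library but spread widely. The log2 fold change of -3.41 (SE 0.75, edgeR adjusted p = 3.39e-03) was not called, and without PLB replicate 1 it was -5.19 and called (adjusted p = 2.36e-04). CL1950 (YABBY 5-like) had 3.16, 3.03 and 2.91 FPKM in leaves and 0.46, 0.27 and 0 in PLBs and was called lower at -3.89 (SE 0.64, edgeR adjusted p = 6.83e-04). That call was lost without any one leaf library, without PLB replicate 1 or 2, and under scaling by library size, with adjusted p of 1.33e-03 to 4.42e-03.

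There were 2 YABBY unigenes that rose. Unigene29536 (YABBY 5 in the NCBI match, YABBY 4 in SwissProt) had 0.33, 0.10 and 0.27 FPKM in leaves and 10.6, 2.81 and 5.08 in PLBs, a log2 fold change of 4.35 (SE 0.58, edgeR adjusted p = 2.11e-04). Unigene22259 (DROOPING LEAF in the NCBI match, YABBY 5 in SwissProt) had 0.17, 0.11 and 0.06 FPKM in leaves and 2.11, 2.81 and 3.59 in PLBs, a log2 fold change of 4.23 (SE 0.50, edgeR adjusted p = 1.10e-04). DROOPING LEAF forms the leaf midrib and the carpel in rice. Unigene29536 was not called without any one leaf library and Unigene22259 not without leaf replicate 2 or 3, with adjusted p of 1.06e-03 to 2.20e-03.

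CL1107 (YABBY 1-like, YABBY 4 in SwissProt) had 0.64, 1.10 and 0.54 FPKM in leaves and 11.9, 0.99 and 5.50 in PLBs. The second PLB library lay within the leaf range, and the log2 fold change of 2.66 (SE 0.78, edgeR adjusted p = 0.0139) was not called, although without PLB replicate 2 it was 3.12 and called (adjusted p = 9.39e-04). CL11617 (DROOPING LEAF-like) had at most 0.27 FPKM in 5 libraries and 3.90 in PLB replicate 1, and had too few counts to test. PLB replicate 1 was thus the highest PLB library for 5 of the 6 YABBY units. Its YABBY total of 31.3 FPKM compared with 7.57 and 13.7 in the other two, and without it the log2 ratio of the family totals was -0.45 in place of 0.27.

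LOB genes showed the broadest rise of the 5 families. By edgeR, 10 of 13 tested clusters were called higher and 0 lower, beside 17.4% and 22.9% of all clusters, and 0 were lower at an unadjusted p under 0.05 or called lower by DESeq2. These checks cover only units with enough counts to test. Of these, 4 had no count in leaves, passed on their PLB counts and could not come out lower. Without a filter on low counts, 1 LOB cluster was called lower. In 12 of the 13 every PLB library lay above every leaf library, which held for 44.0% of all clusters tested. The number called higher was 5 without any one leaf library and 8 to 10 without any one PLB library. Of the 36 LOB unigenes, 17 had no count in any leaf library, 1 had none in any PLB library and 1 had none at all. The 17 are not separate genes, since 7 of them are contigs of the cluster CL956. The share of all unigenes without a count in leaves was not computed, so no trait of the family is read from this.

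**Figure D5:**
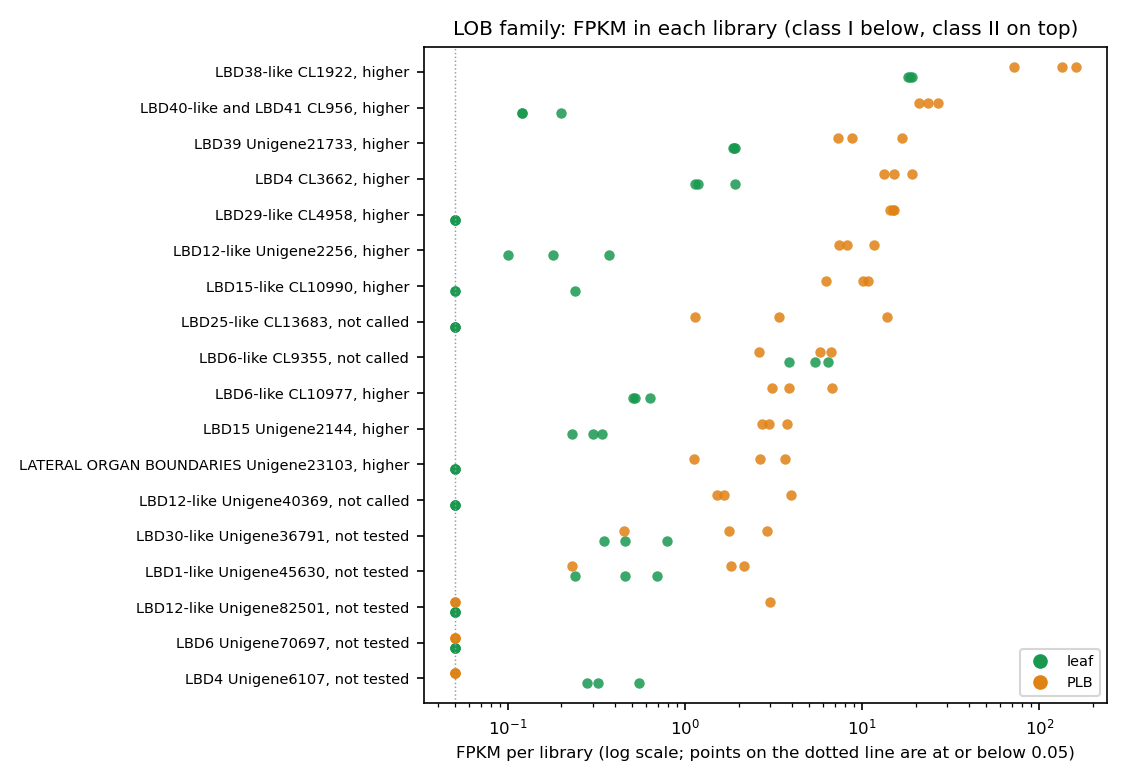
FPKM of each of the 18 LOB units in every leaf and PLB library (log axis), with the call beside each name and values at or below 0.05 drawn on the dotted line. LBD38-like CL1922 leads in both tissues, and LBD6-like CL9355 is the tested unit whose leaf and PLB libraries overlap.

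Class II members carried most of the LOB transcripts. CL1922 (LBD38-like) was the most abundant LOB gene in both tissues, with 18.7, 18.1 and 19.2 FPKM in leaves and 71.5, 134 and 161 in PLBs. Its log2 fold change was 2.36 (SE 0.28, edgeR adjusted p = 1.19e-04), and both contigs were called higher. Without any one leaf library the adjusted p was 1.08e-03 to 1.66e-03. Unigene21733 (LBD39), outside the naming rule, had 1.90, 1.88 and 1.87 FPKM in leaves and 7.30, 8.79 and 16.8 in PLBs and rose by 2.19 (SE 0.30, edgeR adjusted p = 2.42e-04). In *Arabidopsis*, LBD38 and LBD39 respond to nitrate and repress anthocyanin genes.

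The third class II cluster, CL956, whose contigs are named LBD40-like and LBD41, was nearly absent from leaves. It had 0.20, 0.12 and 0.12 FPKM there and 20.9, 26.8 and 23.4 in PLBs. The log2 fold change of 6.96 (SE 0.28, edgeR adjusted p = 6.71e-07) had the smallest adjusted p of all 60 units, and the call held under all 15 alternatives. Of its 8 contigs, 4 were called higher, all named LBD40-like, and 7 had no count in leaves. The contigs named LBD41 were not tested one by one. They had at most 3.59 FPKM in any PLB library, and each had 0 FPKM in at least 1 PLB library. LBD41 is known in *Arabidopsis* as a gene induced by low oxygen, but a rise of LBD41 itself was not tested.

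Among class I members, 7 of 10 tested clusters were called higher and 0 lower. CL4958 (LBD29-like, CRL1 of rice in SwissProt) had no count in any leaf library and 14.8, 15.0 and 14.3 FPKM in PLBs. Against a floor of 3 counts over the 3 leaf libraries it was at least 141-fold higher (edgeR adjusted p = 1.40e-05), and the call held under all 15 alternatives. LBD29 drives lateral root and callus formation downstream of auxin in *Arabidopsis*, and CRL1 is needed for crown roots in rice.

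CL10990 (LBD15-like, LBD13 in SwissProt) had 0, 0 and 0.24 FPKM in leaves and 6.23, 10.8 and 10.1 in PLBs, a count of 3 against 357 (edgeR adjusted p = 1.00e-04). Unigene23103, named for LATERAL ORGAN BOUNDARIES, the founding member that marks organ boundaries, had no count in leaves and 1.12, 2.64 and 3.67 FPKM in PLBs. It was at least 31.4-fold higher (edgeR adjusted p = 7.48e-04), a call lost without any one leaf library or without PLB replicate 2 or 3 (adjusted p of 2.25e-03 to 4.58e-03). These members were thus detected in PLBs and at or near 0 in leaves at this depth.

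The other class I clusters that rose fall outside the naming rule. CL3662 (LBD4), known from vascular boundaries in *Arabidopsis*, had 1.13, 1.91 and 1.18 FPKM in leaves and 13.3, 19.0 and 15.2 in PLBs, a log2 fold change of 3.33 (SE 0.25, edgeR adjusted p = 9.56e-06). Unigene2256 (LBD12-like), CL10977 (LBD6-like) and Unigene2144 (LBD15) rose by log2 fold changes of 5.00, 2.72 and 3.08. CL13683 (LBD25-like) had no count in leaves and 1.14, 3.38 and 13.8 FPKM in PLBs, and its wide spread left it uncalled (edgeR adjusted p = 3.28e-03). Unigene40369 (LBD12-like) was likewise at 0 in leaves, at 1.52, 3.97 and 1.66 FPKM in PLBs, and uncalled (adjusted p = 2.20e-03).

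One tested LOB gene did not follow the family. CL9355 (LBD6-like) had 6.36, 5.42 and 3.84 FPKM in leaves and 6.64, 2.60 and 5.79 in PLBs, which overlapped, with a log2 fold change of -0.39 (SE 0.35, edgeR adjusted p = 0.342). LBD6 is the *Arabidopsis* gene AS2, which keeps meristem genes off in leaves together with AS1. Contig2 of CL9355, matched to AS2 in SwissProt, had 0.96, 1.28 and 1.02 FPKM in leaves and 0.12, 0.13 and 0.12 in PLBs. It had too few counts to test. Most of the cluster's FPKM came from Contig1, which was not called (log2 fold change -0.04, SE 0.41, edgeR adjusted p = 0.931). The 5 LOB units with too few counts to test had at most 3 FPKM in any library. One of them, Unigene6107 (LBD4), was detected in leaves alone, at 0.32, 0.28 and 0.55 FPKM.

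Genes that act with these families were taken from lists matched on SwissProt names, counted per unigene beside the 16.8% called higher and 22.9% called lower of all unigenes tested. The GIF coactivators of GRF proteins formed 1 cluster, CL7021, with 28.9, 29.1 and 29.8 FPKM in leaves and 49.6, 61.1 and 76.0 in PLBs. Its log2 fold change of 0.71 (SE 0.16, edgeR adjusted p = 4.22e-03) was not called. Of the AS1 unigenes, partners of LBD6, 1 of 4 was called higher and 0 lower. Summed per cluster, where 17.4% of all were called higher and 22.9% lower, AS1 had 1 of 2 higher. The cluster CL9666 had 14.7, 17.1 and 13.4 FPKM in leaves and 61.7, 45.6 and 53.8 in PLBs and rose by 1.45 (SE 0.14, edgeR adjusted p = 3.56e-05).

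Knotted-like homeobox genes, which maintain shoot meristems or, in the other class, act in differentiated tissue, had 11 of 26 unigenes higher and 5 lower, and 8 of 14 clusters higher and 2 lower. The SHOOT MERISTEMLESS match Unigene11518 had no count in leaves and 4.81, 5.02 and 3.12 FPKM in PLBs (edgeR adjusted p = 3.17e-05). CL2883, matched to LET12, fell from 47.4, 53.5 and 47.4 FPKM to 12.8, 21.7 and 13.02 (log2 fold change -2.02, adjusted p = 1.22e-04). The boundary genes BLADE ON PETIOLE had 2 of 3 higher and 0 lower, and CUP-SHAPED COTYLEDON 1 of 3 and 0, with the same counts per cluster. The leaf libraries held 0.69 to 1.73 and 1.37 to 2.05 FPKM of these lists, and the PLB libraries 12.01 to 30.7 and 5.36 to 16.2.

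Polarity and corepressor genes that work beside YABBY proteins varied by member. KANADI had 3 of 16 unigenes higher and 1 lower, and 2 of 12 clusters higher and 1 lower. CL7159 (KAN1 and KAN2) rose from 1.41, 1.49 and 1.05 FPKM to 56.5, 80.5 and 41.5, a log2 fold change of 5.24 (SE 0.33, edgeR adjusted p = 4.24e-06), and CL2511 (KAN2) fell by 2.97 on the log2 scale. Class III HD-ZIP genes, which specify the upper side of leaves, had 4 of 7 unigenes higher and 0 lower, but 1 of 4 clusters higher. LEUNIG and SEUSS corepressors had 12 of 36 unigenes higher and 9 lower, but 3 of 14 clusters higher and 1 lower. For the AS1, BLADE ON PETIOLE, CUP-SHAPED COTYLEDON and class III HD-ZIP lists, each with 0 lower by edgeR, an unadjusted p under 0.05 gave 0, 0, 0 and 1 unigenes lower, and DESeq2 called 0 lower in each. Only unigenes with enough counts to test entered these checks.

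Organ size regulators, which include DA1, DA2, BIG BROTHER and KLUH relatives, had 7 of 65 unigenes higher and 14 lower, and 3 of 23 clusters higher and 3 lower. Their FPKM summed to 301 to 308 in the leaf libraries and to 288 to 333 in the PLB libraries. Components of the microRNA machinery, through which miR156, miR319 and miR396 act, had 13 of 40 unigenes higher and 9 lower, and 7 of 17 clusters higher and 4 lower. The microRNAs themselves were not measured in these libraries.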

How the data were processed

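RNA-Seq libraries of 3 leaf and 3 PLB samples were analysed from the files of the series. The authors deposited, per library, expected counts (estimated reads per unigene), TPM and FPKM, and for the series a table of FPKM with annotation. Per the submitters' processing notes, Bowtie2 2.2.5 and RSEM 1.2.8 were used. The authors' log2 fold change, p-value and q-value columns hold their own comparison of PLBs with leaves and were not used. No genome build was needed, since reads were assigned to assembled unigenes.

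The libraries held 17602153 to 18408442 expected counts each, and 59.1% to 64.9% of those above 0 were not whole, because reads shared by similar contigs were divided. They were rounded and tested in R 4.3.3 with edgeR 4.0.16 (filterByExpr, TMM, glmQLFit and glmQLFTest, Benjamini-Hochberg adjustment over all units), per unigene and summed over all contigs of a cluster. Leaf libraries had TMM factors of 0.892 to 0.903 and PLB libraries of 1.07 to 1.14 in the unigene fit. The biological coefficient of variation was 0.337 for unigenes and 0.245 for clusters. The SE of a change was taken from its F statistic, as the absolute change over the root of F.

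Clusters were named by a rule: per family up to 4 called higher and 4 called lower with the largest change and a mean of at least 1 FPKM in the higher tissue, the 2 most abundant in each tissue, and every unit of a family with at most 8. Members and lists were chosen with earlier results of these data known. The search patterns of 2 lists were adjusted after the annotation was read, before their values were: matching was made blind to letter case, and argonaute names were narrowed to AGO1. Classes within families, and names, follow the annotation of the closest protein. Alternatives were RLE factors, library size, DESeq2 1.42.0, no filter, a mean of 1 FPKM, limma 3.58.1 on log2(FPKM + 0.1) and log2(FPKM + 1), an adjusted p under 0.05, member contigs only and each library left out. A fold against a tissue at 0 uses a floor of 3 counts over its libraries, which covers counting error only.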

Additional observations from a re-analysis of the deposited data

How the results depend on the processing

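No paired analysis was possible because the labels number the 6 libraries without a shared number, and replicates 1 to 3 were numbered here within each tissue. Of 450 values of the 30 tested units chosen by the naming rule, each under 15 alternatives, 388 kept direction and side of the threshold, 41 lost the call, 16 gained it and 5 changed sign. All 5 were CL2027 (SPL1), which was never called, with a log2 fold change of 0.32 under library size scaling, 0.31 and 0.30 with limma at pseudocounts of 0.1 and 1, 0.035 without PLB replicate 1 and 0.011 with member contigs only. Its range with 1 library left out was -0.081 to 0.035.

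The counts of calls moved more, and the cause was not tested beyond the settings' own construction. DESeq2 called 5 GRF unigenes higher and 1 lower, 2 SBP and 4 TCP clusters higher, 11 TCP unigenes lower, and 2 YABBY clusters and 2 YABBY unigenes lower. Of all unigenes it called 23.3% higher and 29.3% lower, and of all clusters 21.6% and 26%. Library size scaling gave 3 SBP and 2 TCP clusters higher and 0 YABBY clusters lower, beside 22.1% of all clusters higher and 18.6% lower. Without a filter on low counts, 1 LOB cluster and 2 YABBY clusters were lower and 4 TCP clusters higher, and with the filter on mean FPKM 1 LOB unigene was lower. Of all clusters, 9.63% were higher and 11.4% lower without a filter. Of all unigenes, 15.3% were higher and 21.7% lower with the FPKM filter. Limma at a pseudocount of 0.1 gave 6 GRF unigenes, 3 SBP and 3 TCP clusters higher and 0 GRF and 0 YABBY clusters lower. Of all unigenes it called 23% higher and 22.4% lower, and of all clusters 21.6% and 19%. At a pseudocount of 1 limma gave 6 GRF unigenes, 2 SBP and 3 TCP clusters higher and 2 YABBY clusters and 2 YABBY unigenes lower. The shares were then 22.5% and 21.9% of all unigenes, and 19.9% and 18.2% of all clusters. An adjusted p under 0.05 with no minimum fold gave 6 GRF unigenes higher and 1 lower. It gave 6 SBP clusters and 13 SBP unigenes higher, 5 TCP clusters and 10 TCP unigenes higher, 11 TCP clusters and 19 TCP unigenes lower, and 2 YABBY clusters and 3 YABBY unigenes lower. At that threshold 35.7% of all clusters were higher and 36.8% lower, and 35.7% and 37.2% of all unigenes.

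Leaving out 1 library at a time gave these ranges. Of all clusters, 7.24% to 12.7% were then higher and 11.6% to 18.2% lower. Of all unigenes, 5.97% to 9.17% were higher and 8.7% to 14.6% lower. LOB had 5 to 10 clusters and 2 to 8 unigenes higher, and 0 lower throughout. GRF had 3 to 4 clusters and 1 to 3 unigenes higher and 0 to 1 clusters lower. TCP had 0 to 2 clusters and 1 to 3 unigenes higher, and 3 to 5 clusters and 5 to 6 unigenes lower. SBP had 0 to 2 clusters and 0 to 1 unigenes higher, and 2 to 3 clusters and 3 to 5 unigenes lower. YABBY had 0 to 3 clusters and 0 to 1 unigenes higher, and 0 to 1 clusters and 0 to 1 unigenes lower.

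The log2 ratio of PLB over leaf family totals was -0.07 for TCP in FPKM, 0.13 in TPM and -0.50 in CPM scaled by TMM. It was 0.26 for SBP and 0.46 in TPM, 1.70 for GRF and 1.32 in CPM, and 0.27 for YABBY and 0.94 in CPM. With 1 library left out it was -0.14 to 0.01 for TCP, 0.18 to 0.30 for SBP, 1.61 to 1.79 for GRF, -0.45 to 0.63 for YABBY and 2.83 to 3.19 for LOB. The lists of related genes together had 54 unigenes higher and 38 lower, and 28 and 11 when summed per cluster. Of all unigenes tested, 16.8% were higher and 22.9% lower, and of all clusters 17.4% and 22.9%. The pooled number tested in the lists was not computed, so no share follows from these counts. Counts of 3 or fewer in a tissue limit the fold of the units at or near 0.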
